A study of Mus musculus with 12 samples.

Results

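Gstm1, Gstm2 and Gclm are 3 mouse genes of glutathione metabolism, measured here by 5 probes among the 46093 tested and forming 3 of the 8131 genes that could be named. They were chosen because earlier results from these same arrays showed treatment differences in them, so their differences between treatments are given as descriptions, without a test. A probe was named from the number in its identifier, read as an Entrez gene number. Of 11897 such numbers 82.6% were in the table of mouse genes, against 46.0% after 1 was added to each. Where a gene had several probes, the one with the highest mean over the 12 arrays stood for it.

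The cells were primary cultured granulosa cells, the hormone-producing cells around the egg in an ovarian follicle, from immature mice 21 to 23 days old, and each culture came from a pool of 14 to 20 ovaries. The groups were activin A, activin A plus its antagonist follistatin, and PBS as the vehicle, each applied for 24 h. The 4 experiments each supplied 1 array per group, so each group has 4 arrays. Strain, sorting and dose are not given in the sources used here. All values are signals on the deposited log2-like scale, which runs from 6.75 to 16.2, and folds read it as plain log2. The highest mean of a control spot, 7.31, served as the background level, and 31.9% of probes had a mean above it. Of 15 granulosa cell markers 5 had a named probe (Fst, Amhr2, Wt1, Greb1 and Gata4), and all 5 were above background in the mean over all arrays.

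Glutathione is a small peptide with a reactive thiol that cells use to reduce peroxides and to tag electrophilic compounds for export. Gstm1 and Gstm2 encode mu-class glutathione S-transferases, cytosolic enzymes that join glutathione to such compounds, and they lie next to each other in a cluster of related genes. Gclm encodes the modifier subunit of glutamate-cysteine ligase, the enzyme of the rate-limiting step of glutathione synthesis, and it is a known target of the transcription factor Nrf2, which binds antioxidant response elements. Activin signals through Smad2 and Smad3, and follistatin binds activin and blocks it.

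The promoter sequences are shown because the transferases and the ligase subunit differed in opposite directions with activin. They are the 250 bases before the start site in RefSeq (build GRCm38.p6), with every match to the searched motifs in capitals. Gstm1 (chr3:108017819-108018068, minus strand) and Gstm2 (chr3:107986421-107986670, minus strand) lie in the same region, and Gclm (chr3:122245307-122245556, plus strand) lies elsewhere on the same chromosome.
Gstm1: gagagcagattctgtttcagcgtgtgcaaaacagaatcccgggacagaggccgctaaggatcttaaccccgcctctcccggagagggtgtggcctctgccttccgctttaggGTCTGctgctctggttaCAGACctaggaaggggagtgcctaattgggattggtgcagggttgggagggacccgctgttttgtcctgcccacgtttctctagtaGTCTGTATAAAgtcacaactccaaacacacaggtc
Gstm2: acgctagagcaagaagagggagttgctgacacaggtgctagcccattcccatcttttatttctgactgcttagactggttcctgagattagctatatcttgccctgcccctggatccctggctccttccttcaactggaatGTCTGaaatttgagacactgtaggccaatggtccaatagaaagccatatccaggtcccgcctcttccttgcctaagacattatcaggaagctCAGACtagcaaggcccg
Gclm: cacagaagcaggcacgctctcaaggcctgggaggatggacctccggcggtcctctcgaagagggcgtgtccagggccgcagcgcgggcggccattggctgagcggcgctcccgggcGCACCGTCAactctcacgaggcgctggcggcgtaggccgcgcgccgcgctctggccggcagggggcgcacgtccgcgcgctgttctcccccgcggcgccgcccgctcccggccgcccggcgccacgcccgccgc
Searched on both strands were the antioxidant response element core TGACNNNGC, the AP-1 site TGANTCA, the Smad element CAGAC and the TATA box TATAAA. The Smad element, GTCTG on the other strand, was found in Gstm1 3 times and in Gstm2 2 times, and 42.2% of 32851 promoters of this length hold it. Gstm1 also has a TATA box 30 to 25 bases before its start, next to a Smad element match and not overlapping it, a motif found in 12.4% of promoters. RefSeq lists a further Gstm1 start upstream of this one, whose window holds 2 matches to the Smad element and none to the other motifs. The only match in Gclm was an antioxidant response element core on the other strand, GCACCGTCA, 134 to 126 bases before the start, and 10.2% of promoters hold that motif. The AP-1 site, present in 6.75% of promoters, was not found in these windows. The Gclm window has 41 CpG dinucleotides, more than 98.9% of promoters, and a GC content of 78.4%. The Gstm1 window has 8 CpG and the Gstm2 window 3, where the median promoter has 6. A match is a run of letters in this window and was not tested as a binding site.

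Gstm1 had the widest spread between the treatments among these genes. In experiments 1 to 4 its signal was 10.06, 9.59, 9.72 and 9.83 with activin. With activin plus follistatin it was 14.28, 13.82, 14.11 and 14.54, and with PBS 12.91, 11.79, 12.52 and 12.92. All activin arrays were below all PBS arrays, all arrays with follistatin were above them, and no groups overlapped. The means were 9.80 ± 0.20 with activin, 14.19 ± 0.30 with activin plus follistatin and 12.54 ± 0.53 with PBS (SD, n = 4 each). Activin minus PBS was -2.74 (SE 0.23), a signal 6.67-fold lower with activin, and activin plus follistatin minus PBS was 1.65, or 3.14-fold higher. Between the extremes, activin minus activin plus follistatin was -4.39, a 21.0-fold difference. Among the named genes 4.99% were called in activin against PBS, 0.258% in activin plus follistatin against PBS and 11.9% in activin against activin plus follistatin, and since these contrasts chose the genes nothing is read from that. The arrays measured whole cultures, in which fewer cells of a type and less RNA per cell cannot be told apart.

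The other Gstm1 probe stayed below background, with means of 6.96 with activin, 6.92 with activin plus follistatin and 6.90 with PBS. Its groups overlapped, and its difference of activin minus PBS was 0.07. The Gstm1 pattern therefore rests on 1 probe. Probe sequences were not used here, so whether a probe reads 1 or several of the closely similar mu-class transcripts was not tested.

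Gstm2, the neighbouring transferase gene, followed the same order of groups on 2 probes. Its brightest probe had 13.21, 12.71, 13.11 and 12.49 with activin in experiments 1 to 4. With activin plus follistatin it had 15.65, 15.29, 15.55 and 15.84, and with PBS 14.71, 13.73, 14.45 and 14.75. Activin arrays were again lowest and those with follistatin highest, without overlap. The means were 12.88 ± 0.34 with activin, 15.58 ± 0.23 with activin plus follistatin and 14.41 ± 0.47 with PBS (SD, n = 4 each). Activin minus PBS was -1.53 (SE 0.23), 2.88-fold lower with activin, activin plus follistatin minus PBS was 1.17, 2.26-fold higher, and activin minus activin plus follistatin was -2.70, 6.50-fold. The signal with follistatin reached 15.84, where the highest value of any probe on these arrays was 16.2.

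The dimmer Gstm2 probe had 9.62, 9.06, 9.52 and 9.40 with activin. It had 12.02, 11.55, 11.77 and 12.58 with activin plus follistatin, and 10.41, 10.01, 10.77 and 11.13 with PBS. These groups did not overlap either. Its differences were -1.18 for activin minus PBS, 1.40 for activin plus follistatin minus PBS and -2.58 for activin minus activin plus follistatin (SE 0.25 each). Both Gstm2 probes therefore had the same order of groups.

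Gclm, the ligase subunit, had the opposite direction with activin and a smaller size on its single named probe. Its signal was 9.63, 9.53, 9.09 and 9.61 with activin in experiments 1 to 4. With activin plus follistatin it was 9.04, 8.92, 8.79 and 8.64, and with PBS 9.26, 8.85, 8.80 and 8.86. All activin arrays were above all arrays with follistatin, whereas the activin array of experiment 3, at 9.09, was below the PBS array of experiment 1, at 9.26. The means were 9.46 ± 0.26 with activin, 8.85 ± 0.17 with activin plus follistatin and 8.94 ± 0.21 with PBS (SD, n = 4 each). Activin minus PBS was 0.52 (SE 0.14), a 1.44-fold higher signal, and activin minus activin plus follistatin was 0.62, or 1.53-fold. Activin plus follistatin minus PBS was -0.09 with the same SE, within the spread of the PBS arrays, and it was 0.01 without the PBS array of experiment 1.

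**Figure D1:**
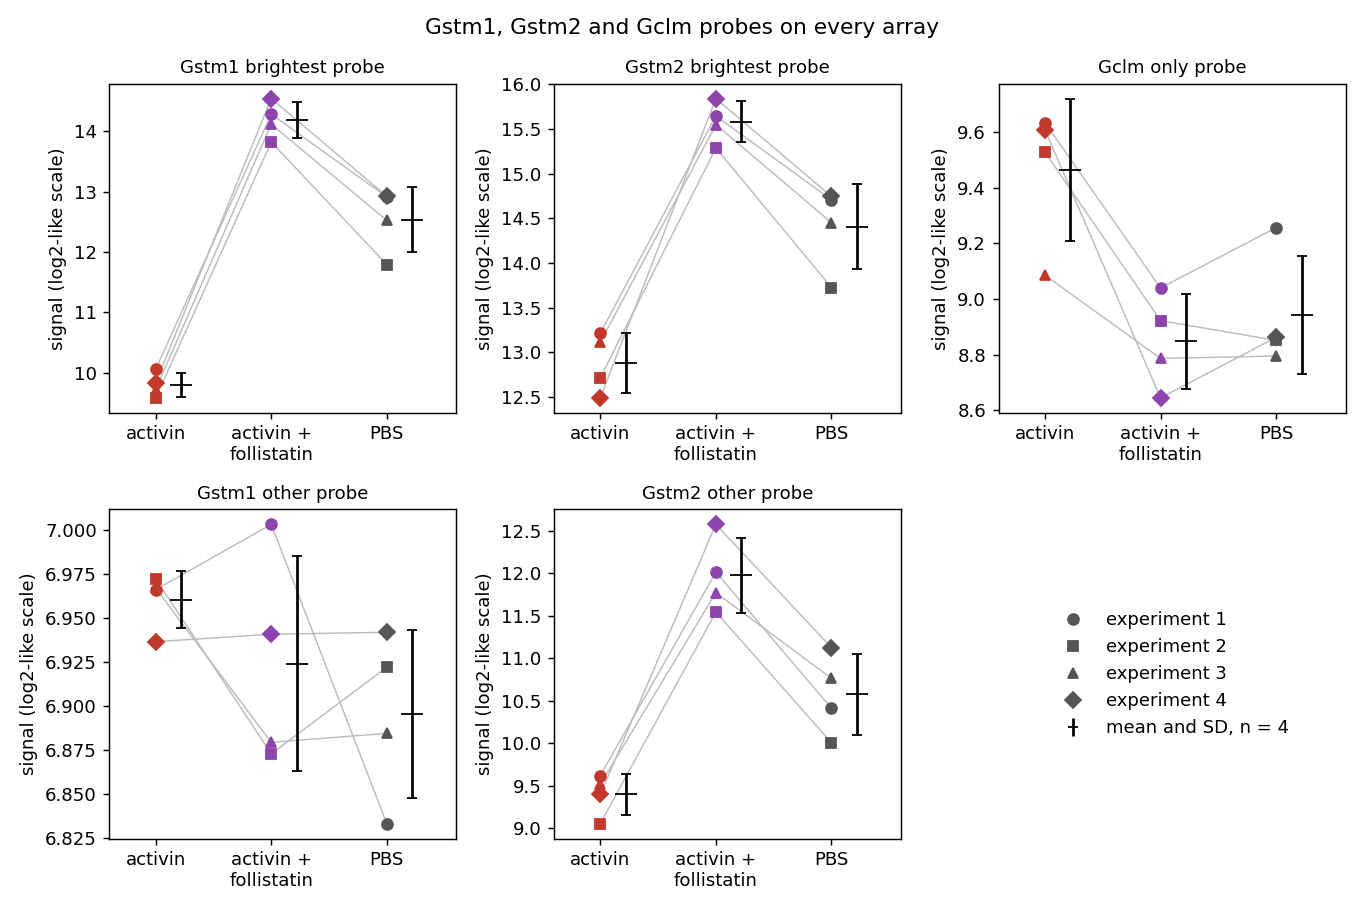
Signal on the deposited log2-like scale (vertical axis) of the 5 probes in activin, activin plus follistatin and PBS cultures, with the other Gstm1 and Gstm2 probes in the lower row and a vertical axis of its own for each probe; each symbol is 1 array, lines join arrays of 1 experiment, and bars give the mean and SD of 4 arrays. The brightest Gstm1 and Gstm2 probes are lowest with activin (means 9.80 and 12.88) and highest with follistatin added (14.19 and 15.58), and Gclm is highest with activin (9.46).

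Differences within an experiment set arrays with the same experiment number against each other. Whether these came from the same pool of ovaries is not given in the sources used here. Gstm1 in activin minus PBS was -2.86, -2.21, -2.80 and -3.09 in experiments 1 to 4, Gstm2 was -1.50, -1.01, -1.34 and -2.26, and Gclm was 0.38, 0.68, 0.29 and 0.75. Each gene thus kept its direction in 4 of 4 experiments. On the brightest probes both transferases had their smallest difference in experiment 2 and their largest in experiment 4. The dimmer Gstm2 probe had -0.79, -0.95, -1.25 and -1.73, smallest in experiment 1 and also largest in experiment 4. Activin plus follistatin minus PBS was 1.37, 2.03, 1.59 and 1.62 for Gstm1 and 0.94, 1.56, 1.10 and 1.10 for Gstm2, largest in experiment 2 for both. For Gclm it was -0.22, 0.07, -0.01 and -0.22, with no shared direction. Both sets of differences use the same PBS arrays. The PBS array of experiment 2 was the lowest PBS array for both transferases, at 11.79 and 13.73.

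**Figure D2:**
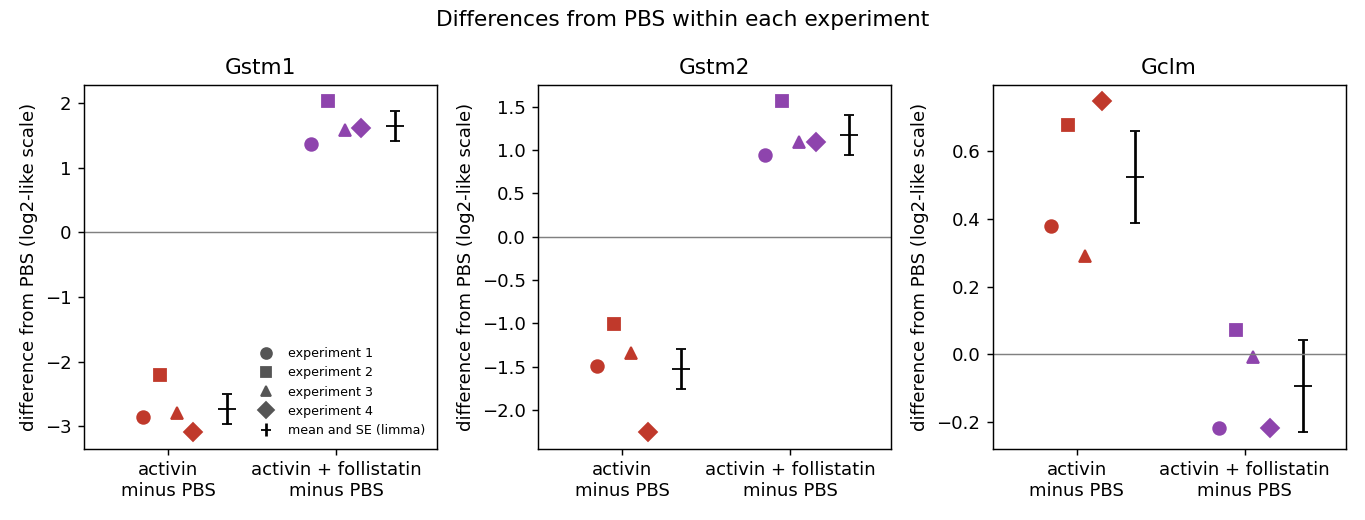
Differences from PBS (vertical axis, log2-like scale) within each of the 4 experiments, for activin and for activin plus follistatin; symbols are experiments and black bars the limma mean and SE. Activin differences lie between -3.09 and -2.21 for Gstm1, -2.26 and -1.01 for Gstm2, and 0.29 and 0.75 for Gclm, and the Gclm differences with follistatin lie on both sides of 0.

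The genes were chosen for differences between treatments, and calls of such differences also use the spread among arrays of 1 treatment. How the genes varied together among arrays of 1 treatment was tested, with tests chosen after the data were seen. After the mean of its treatment was removed from each array, Pearson's r of Gstm1 and Gstm2 over the 12 arrays was 0.871 (p = 0.00268, adjusted p = 0.00803 over 3 pairs of genes, exact two-sided permutation of arrays within treatments), and Spearman's rho was 0.825 (adjusted p = 0.0158, the same exact permutation). These permutations take the arrays of a treatment as exchangeable, although arrays of the same experiment correlate and Gstm1 differed between experiments. When whole experiments were moved instead, with the arrays of each kept together, p was 0.0417 (exact permutation, the smallest that its 24 permutations can give) and 0.125 after adjustment over the 3 pairs, which is above the threshold and as low as this test can go for a single pair. The arrays furthest from 0 for Gstm1 were the PBS arrays of experiments 2 and 4, and r was 0.724 without them. With the means of experiments also removed r was 0.879. With any 1 array left out, r of the deviations from treatment means was at least 0.709 (exact permutation p at most 0.0223), lowest without the PBS array of experiment 2. Without the whole of experiment 2 it was 0.562 (exact permutation p = 0.153), so the relation was weaker and not past the threshold in the other experiments. Gstm1 and the dimmer Gstm2 probe had r = 0.805, and both Gstm2 probes against each other 0.751. Of 4071 named genes above background, 5 (0.123%) had deviations as closely related to those of Gstm1.

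For Gclm r was 0.200 with Gstm1 (adjusted p = 0.861, exact permutation) and -0.05 with Gstm2 (adjusted p = 0.881, exact permutation). A p above the threshold does not show that the genes vary independently. The r for Gclm and Gstm2 was -0.42 after the means of experiments were removed. It ranged between -0.60 and 0.30 when single experiments were left out, with an exact permutation p of 0.0370 without experiment 1 and above 0.05 without each of the others.

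**Figure D3:**
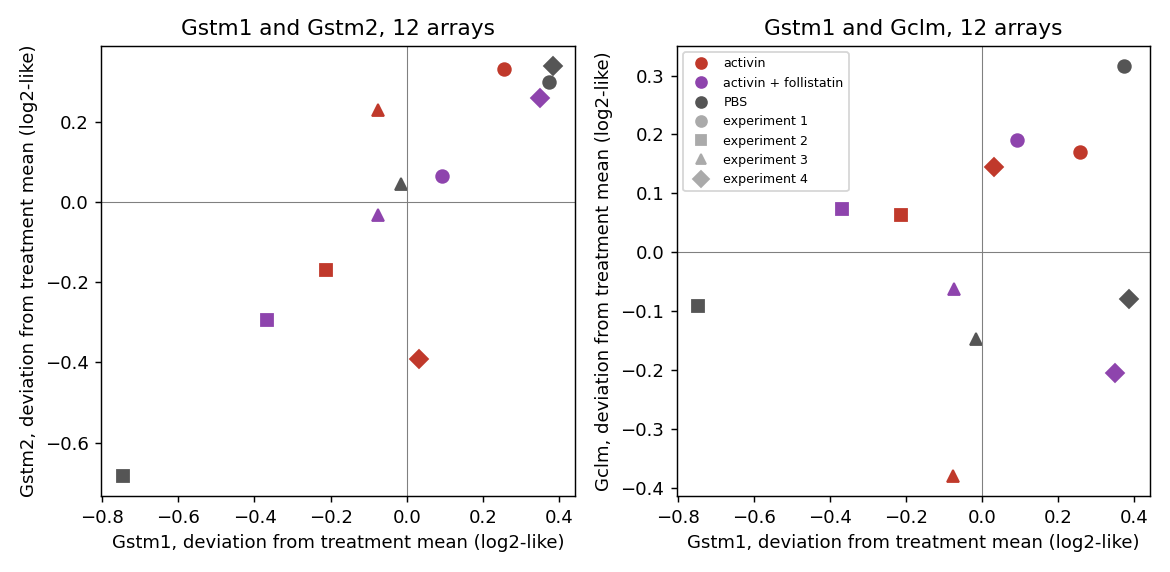
Deviation of each array from the mean of its treatment (log2-like scale) for Gstm2 and Gclm (vertical axes) against Gstm1 (horizontal axis); each symbol is 1 of 12 arrays, coloured by treatment and shaped by experiment. Gstm2 deviations are higher where those of Gstm1 are higher (r = 0.871), and those of Gclm show no such relation (r = 0.200).

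The level of Gstm1 differed between the 4 experiments beyond the remaining spread. Its deviations from the treatment means averaged 0.24, -0.44, -0.05 and 0.26 in experiments 1 to 4 (limma moderated F test with treatment in the fit, F = 11.1, adjusted p = 0.0407), lowest in experiment 2. Among the named genes above background 17.8% passed this test. The adjusted p of Gstm1 was above 0.05 when 1 of 9 of the 12 arrays was left out, ranging up to 0.102, and when 1 of 3 of the 4 experiments was left out, ranging up to 0.135. Gstm2 averaged 0.23, -0.38, 0.08 and 0.07 (adjusted p = 0.358, limma), and Gclm 0.23, 0.02, -0.20 and -0.05 (adjusted p = 0.178, limma), neither past the threshold. Both passed it without the activin array of experiment 4 (adjusted p = 0.00900 for Gstm2 and 0.0356 for Gclm, limma).

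The list of other glutathione S-transferases also holds Ptges, a prostaglandin E synthase gene. Of the 27 genes in the list 9 had a named probe and 6 were above background. Of the 9, 3 passed the limma test in activin against PBS, 2 higher (Gstp1 and Ptges) and 1 lower (Mgst3), where 4.99% of all named genes passed. In activin against activin plus follistatin 4 passed, 2 higher (Gstp1 and Ptges) and 2 lower (Mgst3 and Gstt2), where 11.9% of all named genes passed. None passed in activin plus follistatin against PBS, where 1 had an unadjusted p under 0.05. Mgst3, a microsomal transferase, had the direction of Gstm1 and Gstm2. It had 8.96, 8.69, 8.58 and 8.96 with activin, against 9.88, 9.66, 9.86 and 9.68 with activin plus follistatin and 9.58, 9.20, 9.36 and 9.48 with PBS. The groups did not overlap. Mgst3 fell by 0.61 (SE 0.10) with activin against PBS (adjusted p = 0.00772, limma) and was lower by 0.97 than with follistatin added (activin minus activin plus follistatin -0.97, adjusted p = 1.16e-04, limma). Its difference of activin plus follistatin minus PBS, 0.37, had an adjusted p of 0.324, and 0.0481 with the experiment as a block (limma). Without experiment 3 the adjusted p of activin against PBS was 0.0712.

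Ptges, the microsomal prostaglandin E synthase that uses glutathione, had 8.58, 8.67, 8.60 and 8.86 with activin, against 8.20, 8.01, 8.17 and 7.87 with activin plus follistatin and 8.15, 8.02, 8.15 and 7.96 with PBS. All activin arrays were above all others. It rose by 0.61 (SE 0.08) with activin against PBS (adjusted p = 0.00187, limma), and activin minus activin plus follistatin was 0.62 (adjusted p = 6.08e-04, limma). Gstp1, the pi-class transferase, had 11.29, 11.18, 11.06 and 11.51 with activin, 11.01, 10.79, 10.93 and 10.81 with activin plus follistatin, and 10.95, 10.91, 10.92 and 10.90 with PBS. Activin arrays were above the others, and Gstp1 rose by 0.34 (SE 0.08, adjusted p = 0.0448, limma) against PBS. That call was lost when 1 of 10 of the 12 arrays or any of the 4 experiments was left out, and its adjusted p then reached 0.202. In activin minus activin plus follistatin it was higher by 0.38 (adjusted p = 0.0128, limma), a call kept without any 1 of the 12 arrays and lost without 3 of the 4 experiments. The other Gstp1 probe and the near-identical gene Gstp2 were not called in either comparison without a block. Gstp2 had 0.25 in activin minus PBS and 0.31 in activin minus activin plus follistatin. The latter was called with the experiment as a fixed block (adjusted p = 0.0193, limma). How these genes share probe signal was not tested.

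Gstt2, a theta-class transferase, averaged 9.35 with activin, 9.64 with activin plus follistatin and 9.57 with PBS. Activin minus PBS was -0.22, called only with the experiment as a fixed block (adjusted p = 0.0153, against 0.168 without it, limma). Activin minus activin plus follistatin was -0.28 (SE 0.07, adjusted p = 0.0285, limma). This call was lost when 1 of 5 of the 12 arrays or 1 of 3 of the 4 experiments was left out, and its adjusted p then reached 0.187. Gstk1, at 10.02 with activin, 10.07 with activin plus follistatin and 10.13 with PBS, was not called. Gsta1 and Gstm3 were below background in each treatment, at 7.10 and 7.14 with activin, and so was the Gsta2 mean of 7.26 with activin. Gstm3 is the only other gene with a named probe in the chromosome 3 cluster of 7 Gstm genes, which run in the order Gstm5, Gstm7, Gstm6, Gstm3, Gstm2, Gstm1 and Gstm4.

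Beside Gclm, the list of glutathione synthesis, cysteine supply and breakdown had 6 measured genes, of which Gss and Dpep2 were above background. Gss, which encodes glutathione synthetase, had 7.48 with activin, 7.52 with activin plus follistatin and 7.46 with PBS. Slc7a11, the cystine transporter subunit, lay below background at 7.28 with activin, 7.20 with activin plus follistatin and 7.21 with PBS. None of the 6 was called by limma in any of the 3 comparisons, with or without the experiment as a block, and 2 had an unadjusted p under 0.05, both in activin against activin plus follistatin. Gclc, the catalytic subunit that pairs with Gclm, had no named probe and was not analysed here.

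The remaining lists covered enzymes that use or recycle glutathione (11 measured), thioredoxins, peroxiredoxins and superoxide dismutases (6 measured) and the Nrf2 system with its known targets (15 measured), and none of their genes was called by limma in the 3 comparisons without a block. In activin against PBS 1, 2 and 2 of them, in this order of lists, had an unadjusted p under 0.05. Sod1, the copper-zinc superoxide dismutase, came closest in activin against PBS, at 12.55 with activin, 12.41 with activin plus follistatin and 12.29 with PBS (activin minus PBS 0.25, adjusted p = 0.0524, limma). With the experiment as a block it passed (adjusted p = 0.0186, limma), as did Srxn1, which reduces oxidised peroxiredoxins (0.41, adjusted p = 0.00482), Fth1, the ferritin heavy chain (0.34, adjusted p = 0.00965), and Taldo1, transaldolase (0.44, adjusted p = 0.00106), all higher with activin than with PBS. With the experiment as a random block, whose estimated correlation was 0.0791, Sod1 passed (adjusted p = 0.0354, limma), whereas Srxn1, Fth1 and Taldo1 had adjusted p of 0.179, 0.247 and 0.478. The random block sets 1 correlation for all probes. Srxn1, Fth1 and Taldo1 differed between experiments (adjusted p = 0.0121, 0.0137 and 1.91e-04, limma F test), and Sod1 did not pass that test (0.582). Of named genes above background 17.8% passed it. The other 2 Srxn1 probes, at means of 7.61 and 7.33, had differences of 0.12 and 0.02 and were not called. With the fixed block, Srxn1, Fth1 and Taldo1 also passed in activin against activin plus follistatin, together with Hagh, which completes the glutathione-dependent removal of methylglyoxal (0.28, adjusted p = 0.0367, limma), and none of these 4 passed there with the random block (adjusted p = 0.0900 to 0.314). The difference of Gclm had an SE of 0.09 with the block, against 0.14 without it.

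Over all 5 lists without Gstm1, Gstm2 and Gclm, 47 genes were measured and 33 were above background. In activin against PBS 3 of 47 were called (6.38%, against 4.99% of all named genes) and in activin against activin plus follistatin 4 of 47 (8.51%, against 11.9%). In activin plus follistatin against PBS 0 of 47 were called by limma, against 0.258% of named genes, and 2 had an unadjusted p under 0.05. A fixed block for experiment gave 8 (17.0%, against 10.6%), 9 (19.1%, against 18.9%) and 1 (2.13%, against 2.16%) called genes, in the same order of comparisons. The random block gave 4 (8.51%, against 5.85%), 4 (8.51%, against 13.5%) and 0 (against 0.467%), so most calls gained with the fixed block were absent with it. It sets 1 correlation for all probes, so these counts do not settle which of the gained calls hold. These shares include genes below background, and 33 of the 47 genes were above it, against 4071 of 8131 named genes. The median difference of activin minus PBS over the 47 genes was 0.02, against 0.0019 over all named genes. The median absolute difference was 0.087, against 0.042 over all named genes.

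**Figure D4:**
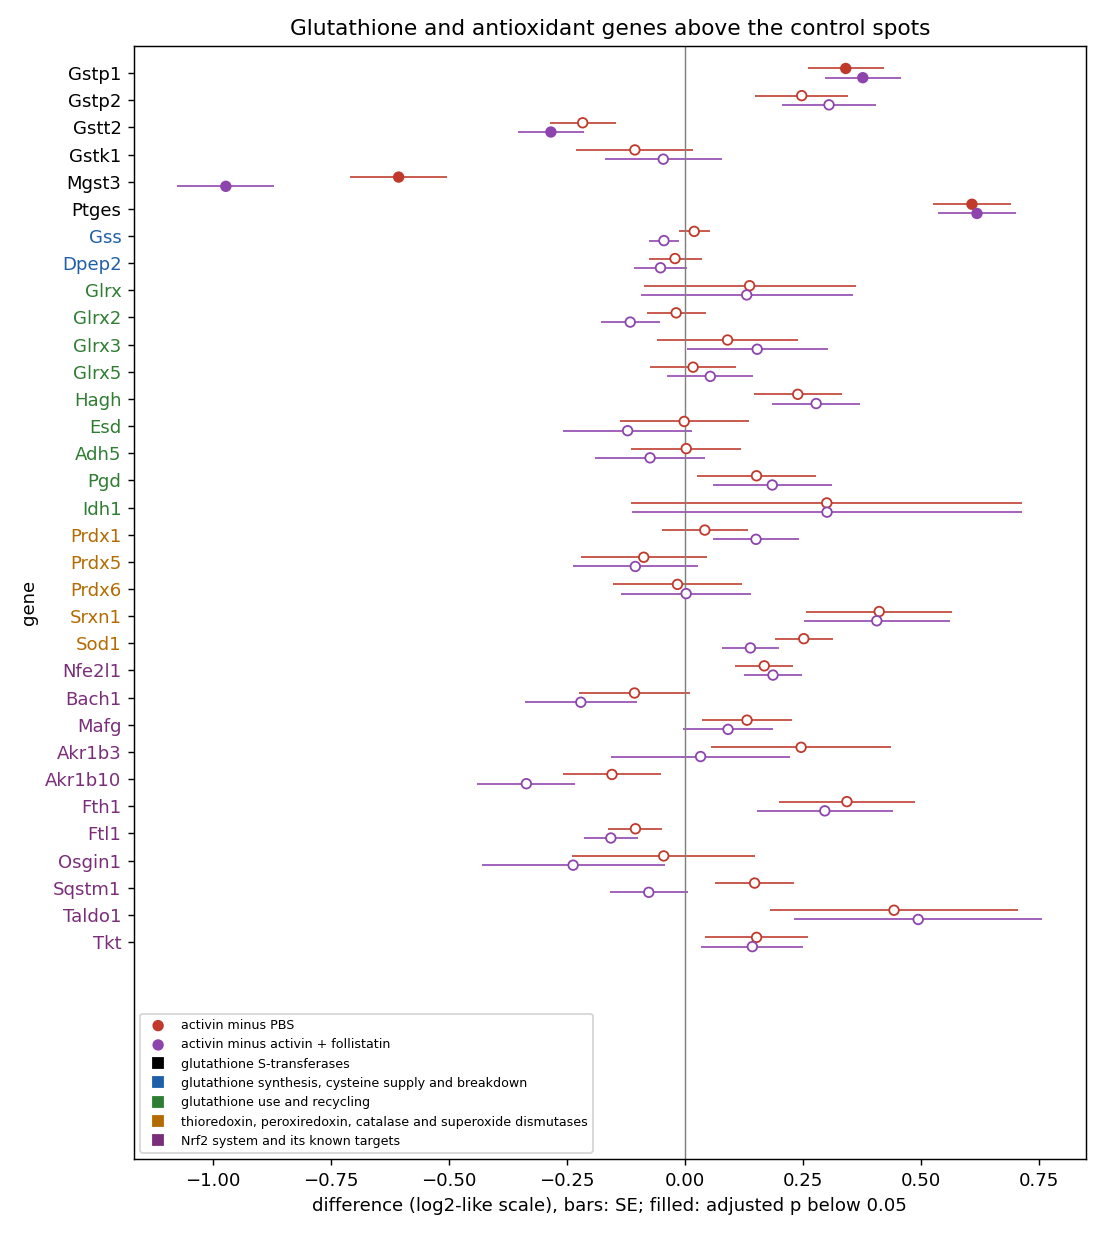
Differences of activin minus PBS and of activin minus activin plus follistatin (log2-like scale) for the 33 listed glutathione and redox genes above background, without Gstm1, Gstm2 and Gclm; label colours give the list, bars the SE, and filled symbols passed the limma test at an adjusted p of 0.05. Mgst3 (-0.61 in activin minus PBS) and Ptges (0.61) have the largest differences from PBS among the genes shown, and both are smaller in size than those of Gstm1 (-2.74) and Gstm2 (-1.53).

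Of the markers of theca and stromal cells, which lie outside the granulosa layer, some had the direction of Gstm1 and Gstm2 and others did not. Of 16 such markers 10 were measured and 7 were above background. The mean level of the 10 was 8.25 to 8.68 with activin, 8.99 to 9.22 with activin plus follistatin and 8.79 to 9.07 with PBS. Their median difference of activin minus PBS was -0.016, against 0.0019 over all named genes. In activin against PBS 2 of 10 were called (against 4.99% of named genes), both lower with activin: Col3a1, a fibrillar collagen chain (-0.73, adjusted p = 0.00654, limma), and Aldh1a1, a retinaldehyde dehydrogenase (-1.83, adjusted p = 9.22e-04, limma). In activin against activin plus follistatin 3 of 10 were called (against 11.9% of named genes), all lower with activin, Col3a1 at -0.95, Aldh1a1 at -2.35 and Dcn, the proteoglycan decorin, at -2.81. In activin minus PBS Dcn had -1.77 (-0.44 on its dimmer probe), not called without a block (adjusted p = 0.139, limma) and called with the fixed block (adjusted p = 0.00667, limma). Gli2, a mediator of hedgehog signalling, had the other direction, at 0.20 in activin minus PBS and 0.23 in activin minus activin plus follistatin, and passed only with the fixed block (adjusted p = 0.0443 and 0.0134, limma). Col1a1, a further collagen chain above background, had -0.02 and 0.06 and was not called. Col1a2, Ptch1 and Insl3 were below background, and Cyp11a1 and Star were not called. Robo4, 1 of 3 measured endothelial markers, was lower with activin than with follistatin added (-0.80, adjusted p = 2.93e-04, limma). With the fixed block it was also lower with activin than with PBS (-0.28, adjusted p = 0.0409, limma) and higher with activin plus follistatin than with PBS (0.52, adjusted p = 0.00775, limma). The endothelial markers Pecam1 and Emcn were not called, at -0.02 and 0.09 in activin minus PBS. Of the 5 measured granulosa markers 1 was called in each activin comparison (against 4.99% and 11.9% of named genes), Fst, which was higher with activin. Fst had 2.52 in activin minus PBS and 4.22 in activin minus activin plus follistatin (adjusted p = 3.13e-05 and 2.08e-07, limma). Wt1 had -0.38 and -0.73 in the same comparisons, called only with the fixed block (adjusted p = 0.0196 and 2.09e-04, limma). Fst was also called in activin plus follistatin against PBS, at -1.70 (adjusted p = 0.00280, limma), where 0.258% of named genes were called. Amhr2, Greb1 and Gata4 were not called, at 0.14, -0.12 and -0.03 in activin minus PBS. None of the 7 macrophage, 2 smooth muscle, 1 oocyte, 4 surface epithelium and 2 red blood cell markers was called by limma in these comparisons without a block, 1 macrophage marker was called with it in activin against activin plus follistatin, and 1 had an unadjusted p under 0.05 in each activin comparison. The part of other cell types in the Gstm1, Gstm2 and Gclm differences was not tested.

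The genes most like each member were ranked by Pearson's r of signals over the 12 arrays, among 4068 other named genes above background. The arrays fall into 3 treatment groups that share this order, so r mostly describes treatment means and carries no test. The closest to Gstm1 were Pcdh9 (0.988), Osbpl9 (0.987), Fhod3 (0.984), Cntnap2 (0.981) and Bves (0.975), and the most opposite were Peli2 (-0.990) and Fst (-0.990). Fst encodes follistatin and averaged 12.92 with activin, 8.70 with activin plus follistatin and 10.40 with PBS. For Gstm2 they were Fhod3 (0.988), Pfkm (0.981), Mon1b (0.978), Osbpl9 (0.974) and Lhfp (0.973), and opposite to it Clspn (-0.982) and Peli2 (-0.979). Fhod3 and Osbpl9 stood in both lists. For Gclm they were Rad18 (0.947), Dnd1 (0.943), Nelfe (0.938), Knstrn (0.930) and Pex19 (0.928), with Smpd2 (-0.921) and Ulk2 (-0.918) opposite, and none of these was among the genes listed for either transferase. Among the members r was 0.987 for Gstm1 and Gstm2, -0.77 for Gstm1 and Gclm and -0.76 for Gstm2 and Gclm.

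The chromosomal neighbours were examined after the values had been seen. Of the 10 named genes nearest to the Gstm2 and Gstm1 pair, 5 on each side, 0 were called by limma in activin against PBS, with or without the block (against 4.99% of named genes without it), and 4 had an unadjusted p under 0.05. In activin against activin plus follistatin 2 were called (against 11.9% of named genes), both lower with activin, Ahcyl1 (-0.26, adjusted p = 0.0117, limma) and Sort1 (-0.62, adjusted p = 0.0134, limma). Of the 10 nearest to Gclm 0 were called by limma in either comparison, and 1 had an unadjusted p under 0.05 in each. With the experiment as a block 1 was called in activin against PBS, Arhgap29 (against 10.6% of named genes), and 3 in activin against activin plus follistatin, Arhgap29, Alg14 and Cnn3 (against 18.9%).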

How the data were processed

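The authors deposited 1 table of 46116 probes on 12 Illumina Sentrix Mouse-6 arrays. Its log2 or log2-like values were normalized between arrays by the authors before deposit, by a method not given in the sources used here (column medians are 7.17 to 7.18), and the submitters' processing notes name lumi 1.2.0 without its role. About 100 ng of RNA per culture was amplified and labelled with Cy3, per the labels. The values carry no detection calls and no visible background subtraction, so differences of dim probes understate changes. The number of arrays limits the precision, and correlations between arrays were 0.967 to 0.994. All 12 columns were used.

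After 23 control spots were left out, 46093 probes were tested in limma 3.58.1 (R 4.3.3) with 1 fit of 3 treatment means, two-sided moderated tests and p-values adjusted over all probes (Benjamini-Hochberg, threshold 0.05). "Called" means an adjusted p under that threshold. Probes were named through the mouse gene table on assembly GRCm38.p6 (9841 probes, 36252 without a name). Named in the text are Gstm1, Gstm2 and Gclm, the measured genes of the transferase and synthesis lists, called or lowest-p genes of the other lists, the 5 most alike and 2 most opposite genes, and called or leading cell type markers. The genes, lists and tests were chosen with earlier results of these data known. The series' design gives the same number to arrays of 1 experiment, and after treatment means were removed arrays of the same experiment correlated at 0.331 to 0.801, against -0.63 to 0.406 for other pairs. Shared deviations were tested by all 13824 permutations of arrays within treatments and by the 24 permutations of whole experiments, both chosen after the data were seen. The fits were run on simulated data with independent noise on each array. Such data could not show which block suits arrays that share an experiment. Promoter windows and motif shares came from 32851 RefSeq promoters, and figures were drawn with matplotlib 3.10.9 in Python 3.11.15. Alternatives were the experiment as a fixed or random block, quantile normalization, median centring, array weights, probes above the control spots, subtraction of the control level, the mean of all probes of a gene, and leaving out each array and each experiment.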

Additional observations from a re-analysis of the deposited data

Results flagged for a closer look

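Among 18 groups of 4 values checked for a value far from its group, 2 held one, where chance alone gives about 1 in 20. The Gclm signal of the PBS array of experiment 1 was 9.26, above the other PBS arrays at 8.80 to 8.86. Without that array activin minus PBS for Gclm was 0.63 instead of 0.52, and activin plus follistatin minus PBS was 0.01 instead of -0.09. The Gstm2 difference of activin minus activin plus follistatin in experiment 4 was -3.35, larger than in the other experiments, where it was -2.58 to -2.44. The dimmer Gstm2 probe also had its largest difference there, -3.18.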

How the results depend on the processing

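The differences of Gstm1, Gstm2 and Gclm stayed within the replicate spread in 204 recomputed values and moved further in 3, all from the mean of both Gstm1 probes (-1.34 for activin minus PBS, 0.84 for activin plus follistatin minus PBS and -2.18 for activin minus activin plus follistatin), which averages in the probe below background. Some of the 204 could not move. The fixed and random blocks give the same differences in this balanced design, and so does leaving out an array of a group outside the comparison. With the experiment as a replicate block, which uses the shared experiment of each set of arrays, called glutathione genes numbered 8, 1 and 9 and called probes 2820, 557 and 5087 for activin against PBS, activin plus follistatin against PBS and activin against activin plus follistatin, against 3, 0 and 4 genes and 1342, 82 and 3296 probes without it. The random replicate block, at the estimated correlation of 0.0791, gave 4, 0 and 4 genes and 1600, 132 and 3741 probes in that order, so most of the gain in glutathione genes was absent with it. That block sets the same correlation for all probes, however much a gene differs between experiments. The restriction to probes above the control spots gave 132 probes for activin plus follistatin against PBS.

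Leaving out arrays or experiments, called glutathione genes ranged from 1 to 4 for activin against PBS (1 without experiment 3) and from 2 to 5 for activin against activin plus follistatin. Called probes ranged from 625 to 1356 for activin against PBS, from 24 to 107 for activin plus follistatin against PBS and from 2091 to 3268 for activin against activin plus follistatin. The F of the experiment effect ranged from 8.51 to 18.2 for Gstm1, from 0.520 to 20.0 for Gstm2 and from 1.89 to 14.8 for Gclm. The r of shared deviations, added after the data were seen, ranged from 0.562 to 0.974 for Gstm1 and Gstm2, from -0.22 to 0.511 for Gstm1 and Gclm, and from -0.60 to 0.299 for Gstm2 and Gclm, and the cause of these movements was not tested.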
